A study of Mus musculus with 18 samples.

Results

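The genes described here form the interleukin 10 (IL-10) receptor pathway with a set of its effectors. They are the cytokine gene Il10, the receptor chains Il10ra and Il10rb, the kinases Jak1 and Tyk2, the transcription factor Stat3, and the effector genes Sbno2, Etv3, Nfil3 and Il4ra. They were taken by gene symbol, with earlier results of these data known, and all 10 were found among the 24485 genes of every library. Each of them had enough reads to be tested in all 10 comparisons.

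RNA-seq was performed on bone marrow-derived macrophages (BMDMs) that were grown from Il10-/- mice on the C57BL/6J background, 12-week-old males by the methods of the study, so the cells of every group lacked a working Il10 gene. The 18 libraries formed 6 groups of 3, described in the labels as biologically matched, without saying which mouse a replicate number stands for. Unstimulated cells received no pretreatment, JQ1 cells received (+)-JQ1 at 500 nM for 12 hours, IL-10 cells received recombinant IL-10 at 10 ng/mL for 12 hours, and all of them then received buffer (PBS) for 4 hours. LPS, LPS + JQ1 and LPS + IL-10 cells had the same 3 pretreatments followed by lipopolysaccharide (LPS), the outer membrane glycolipid of Gram-negative bacteria that is sensed by TLR4, at 50 ng/mL for 4 hours. The labels call cells without pretreatment untreated, whereas the methods name a vehicle control. JQ1 blocks the bromodomains with which BET proteins bind acetylated histones. No wild-type library was analysed here, so nothing below compares these cells with cells that make their own IL-10.

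IL-10 restrains macrophage activation, and mice without it develop colitis in response to gut bacteria. The cytokine binds a receptor made of a ligand-binding chain (Il10ra) and a chain shared with other cytokines of its family (Il10rb). JAK1 on the former and TYK2 on the latter then phosphorylate STAT3, which enters the nucleus and switches on genes whose products limit inflammatory transcription, among them the corepressors SBNO2 and ETV3 and the repressor NFIL3.

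Libraries held 6781952 to 28289498 expected counts, so that 3 counts, taken as the smallest measurable amount, stood for 0.106 to 0.442 CPM (counts scaled to the library total). All 9 macrophage markers, among them Csf1r and Adgre1, were found in all libraries, with a summed level of 15769 to 29424 TPM (transcript abundance scaled by length and library total). T cell, B cell, neutrophil, dendritic cell, fibroblast, erythroid and mast cell markers summed to at most 11.6 TPM in any library, and the neutrophil marker Ly6g was at 0 in all of them. Scaling mattered wherever LPS was compared with no LPS, and also between cells with and without JQ1. Over the genes on which the scalings were compared, the median log2 fold change with LPS was -0.03 after median-of-ratios scaling, which is used below unless stated. It was -0.96 after scaling by total counts and -0.69 on TPM. Over all genes tested in the median-of-ratios fit it was -0.07. For LPS + JQ1 against LPS the median was -0.09 after median-of-ratios scaling and 0.29 after total-count scaling. For JQ1 alone these medians were 0.01 and -0.16. Orders and overlaps of libraries below are those of normalised counts unless TPM is named, and some of them differed on TPM. Of the 3 unstimulated libraries, replicate 1 had the highest normalised read count for 7 of the 10 genes, a count taken over these 10 genes only. The part of replicate 1 in the results was not tested further than by leaving it out. The comparisons of LPS, JQ1 and IL-10 with unstimulated cells kept every call among the 10 genes without it. The LPS values of the most affected genes were then 1.38 for Nfil3, 2.59 for Stat3, 0.97 for Sbno2 and 0.89 for Il4ra on the log2 scale. In bulk RNA, fewer cells with a transcript and less of it per cell cannot be told apart.

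Per unit of transcript length, the receptor chains were the most abundant transcripts of the pathway in unstimulated cells. Il10rb had the highest level at 223 ± 12.6 TPM (mean ± SD, n = 3, as for all means below), followed by Il10ra at 101 ± 1.49 and Jak1 at 84.1 ± 3.12 TPM. Sbno2 (68.9 ± 11.0), Etv3 (59.6 ± 4.70) and Stat3 (55.4 ± 10.4 TPM) overlapped between neighbours, as did Il4ra (40.1 ± 6.40) and Tyk2 (36.1 ± 1.91 TPM). Nfil3 followed at 12.7 ± 3.29 TPM. Il10 had the lowest level, at 4.02 ± 0.736 TPM.

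**Figure D1:**
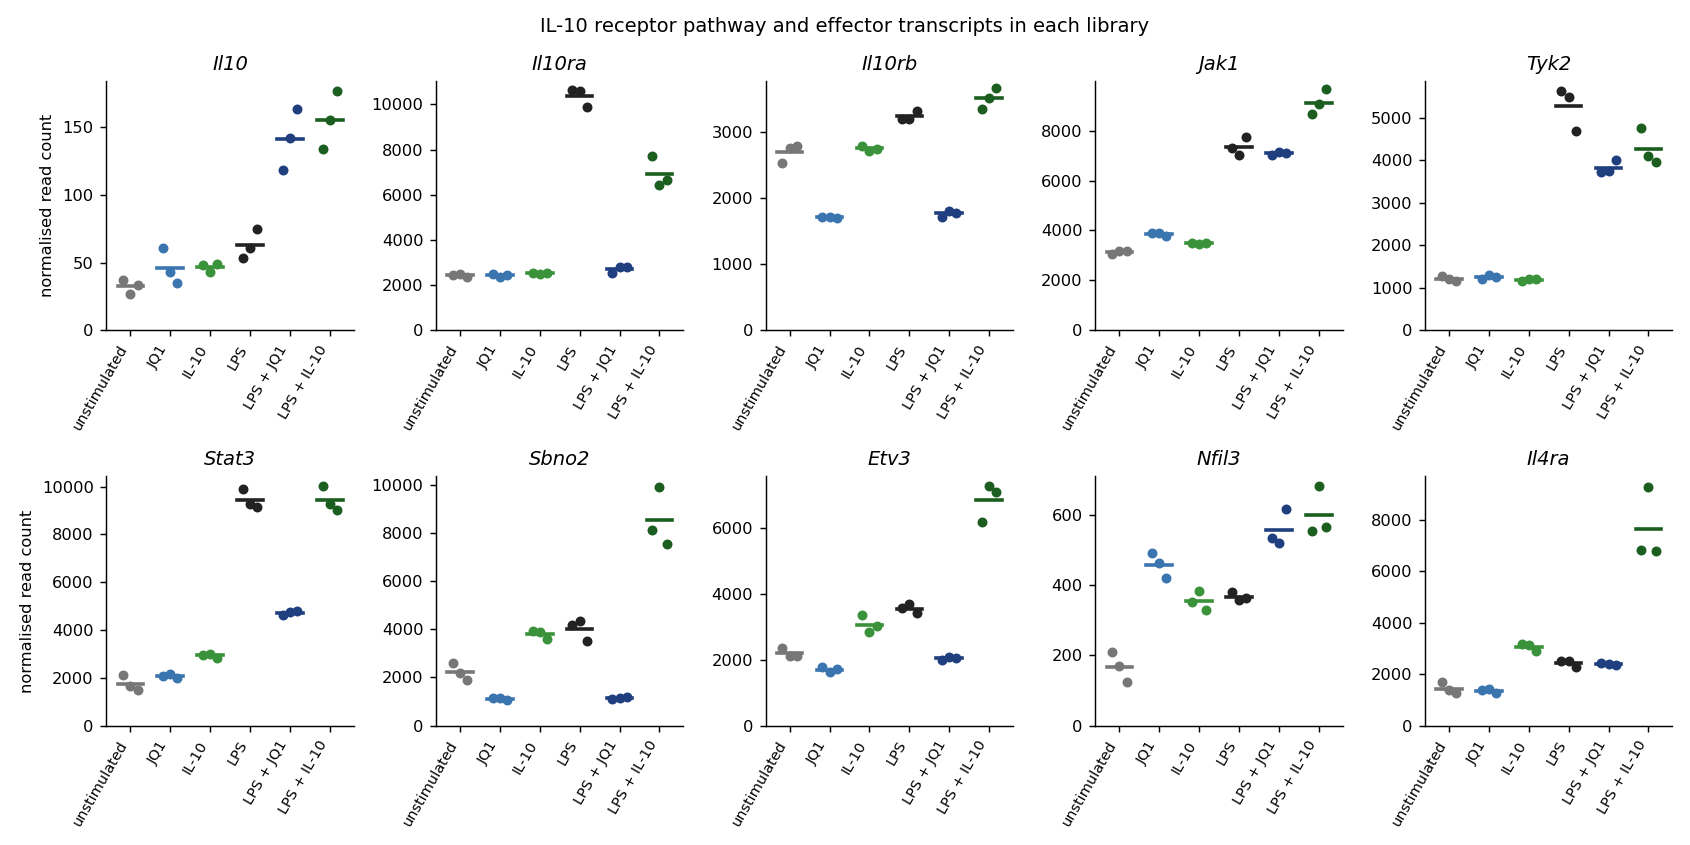
Normalised read counts (linear axes from 0, 1 panel per gene) of the 10 genes in the 6 groups. Points are the 3 libraries in the order of their replicate numbers, and bars are group means. Il10ra stood at 2519 to 2812 in LPS + JQ1 cells and at 2367 to 2506 in unstimulated cells. On TPM it was lower in LPS + JQ1 cells (72.0 to 87.8) than in unstimulated cells (99.9 to 103). Sbno2 lay at 1069.7 to 1184 in all 6 libraries with JQ1, and Sbno2, Etv3 and Il4ra were highest with LPS + IL-10.

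Transcripts of the disrupted cytokine gene Il10 (mm9 chr1:132916422-132921551, plus strand) were measured in every library, with 16 to 196 expected counts. The deposited counts are sums per gene and do not say which exons the reads came from, so they are no check of the genotype. On the TPM scale, replicates 1, 2 and 3 of the LPS cells stood at 3.62, 4.29 and 5.81, those of the LPS + JQ1 cells at 10.1, 13.1 and 14.4, and those of the LPS + IL-10 cells at 9.65, 12.0 and 14.6. The 6 pretreated libraries all lay above the 3 LPS libraries. The rise in normalised count was 2.23-fold for JQ1 (log2 fold change 1.15, SE 0.212, DESeq2 adjusted p = 1.73e-07) and 2.46-fold for IL-10 (1.30, SE 0.212, DESeq2 adjusted p = 2.76e-08). LPS + JQ1 and LPS + IL-10 cells overlapped, with a log2 difference of -0.15 (95% interval -0.52 to 0.23). With LPS alone the normalised count was 1.90-fold higher (DESeq2 adjusted p = 0.000275), but the log2 fold change was -0.003 after total-count scaling and 0.14 on TPM. IL-10 alone gave a mean of 46.8 ± 3.27 normalised counts against 32.5 ± 5.06, without overlap, yet the difference did not pass the test (DESeq2 adjusted p = 0.447).

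Il10ra (mm9 chr9:45061922-45077232, minus strand) encodes the chain that gives a cell its specificity for IL-10. Before LPS, replicates 1, 2 and 3 had normalised counts of 2451, 2506 and 2367 if left unstimulated, of 2497, 2372 and 2464 after JQ1, and of 2531, 2489.6 and 2529.7 after IL-10. After LPS, the counts were 10617, 10595 and 9889.7 with no pretreatment, fell to 2519, 2812 and 2812 after JQ1, and stood at 7733, 6416 and 6652 after IL-10. The 3 groups without LPS overlapped. All LPS libraries lay above all LPS + IL-10 libraries, and these lay above all LPS + JQ1 libraries.

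LPS raised Il10ra 4.25-fold (log2 fold change 2.09, SE 0.070, DESeq2 adjusted p = 4.49e-196), and the rise passed under every alternative tried, with a lowest log2 fold change of 1.16 after total-count scaling. After JQ1 the same stimulus gave a 1.11-fold difference (0.15, 95% interval 0.01 to 0.29, DESeq2 adjusted p = 0.0559), whose call and sign depended on the processing. It was called higher by edgeR, with TMM factors, with the length offset, with the lane as a covariate and with the compared groups alone (0.16 to 0.21, adjusted p 0.00538 to 0.0463), and it turned after total-count scaling (-0.22, called) and on TPM (-0.12). LPS + JQ1 cells thus had 3.82-fold less Il10ra than LPS cells (log2 fold change -1.93, SE 0.070, DESeq2 adjusted p = 1.35e-167). JQ1 without LPS gave a log2 fold change of 0.003 (95% interval -0.14 to 0.14), although total-count scaling (-0.17) and TPM (-0.20) each called it lower. The difference between the effects of JQ1 with and without LPS was -1.94 (SE 0.099, DESeq2 adjusted p = 1.12e-81). IL-10 also lowered Il10ra during LPS stimulation, by 1.50-fold (-0.58, SE 0.068, DESeq2 adjusted p = 1.92e-15), and not detectably before it (0.05, 95% interval -0.09 to 0.18). This difference in the effect of IL-10 was -0.63 (SE 0.098, DESeq2 adjusted p = 2.60e-08).

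Il10rb (mm9 chr16:91406409-91426074, plus strand), the chain shared with receptors for IL-22 and type III interferons, was lower with JQ1 whether or not LPS was present. Unstimulated libraries held 2533, 2757 and 2791 normalised counts, JQ1 libraries 1707, 1713 and 1699.8, and IL-10 libraries 2787, 2709 and 2747. Among the stimulated cells, LPS libraries held 3195, 3189.8 and 3321, LPS + JQ1 libraries 1713, 1810.3 and 1775, and LPS + IL-10 libraries 3349, 3511 and 3669. All 6 JQ1 libraries lay below all 12 others. The fall was 1.58-fold without LPS (log2 fold change -0.66, SE 0.053, DESeq2 adjusted p = 5.62e-34) and 1.83-fold with it (-0.87, SE 0.053, DESeq2 adjusted p = 8.61e-59). LPS itself gave a log2 fold change of 0.27 (SE 0.052, DESeq2 adjusted p = 6.24e-07) that was -0.66 after total-count scaling and -0.51 on TPM, so its direction depended on the scaling. IL-10 did not detectably move Il10rb without LPS (0.03, 95% interval -0.07 to 0.13) or with it (0.12, 95% interval 0.02 to 0.22, DESeq2 adjusted p = 0.0982), although the latter passed after total-count scaling (0.21) and without LPS + IL-10 replicate 1 (0.15).

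Jak1 (mm9 chr4:100824972-100937887, minus strand) encodes the kinase bound to the IL-10-binding chain. In the absence of LPS its normalised counts of 3046, 3181 and 3178 (unstimulated) compared with 3890.0, 3879.9 and 3779 (JQ1) and 3483, 3467 and 3501 (IL-10). In its presence, 7305, 7032 and 7732 (no pretreatment) compared with 7007, 7161 and 7085 (JQ1) and 8659.7, 9052 and 9654 (IL-10). The LPS and LPS + JQ1 libraries overlapped, and all LPS + IL-10 libraries lay above them. LPS raised Jak1 2.35-fold (log2 fold change 1.23, SE 0.050, DESeq2 adjusted p = 1.69e-134). Its lowest value over the alternatives, 0.30 after total-count scaling, was still called.

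During LPS stimulation IL-10 raised Jak1 1.24-fold (0.31, SE 0.048, DESeq2 adjusted p = 4.64e-09). Without LPS the 3 IL-10 libraries were higher than the 3 unstimulated ones by 1.11-fold, which missed the threshold (0.15, SE 0.050, DESeq2 adjusted p = 0.0684). This Jak1 difference passed with the replicate number as a block (0.15, DESeq2 adjusted p = 0.0425) and with TMM factors (0.16, DESeq2 adjusted p = 0.0462). The adjusted p of the alternatives ranged from 0.0425 to 0.406 for Jak1. JQ1 alone raised it 1.23-fold (0.30, SE 0.050, DESeq2 adjusted p = 2.35e-08), a call that was lost after total-count scaling (0.12) and on TPM (0.09). JQ1 with LPS gave -0.05 against LPS (95% interval -0.15 to 0.04), which became 0.32 after total-count scaling and 0.25 on TPM, each called.

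Tyk2 (mm9 chr9:20908521-20931790, minus strand), the kinase bound to the shared chain, was lower in all libraries without LPS than in those with it. It had 1163 to 1292 normalised counts across the 9 libraries without LPS. On this scale the unstimulated libraries overlapped with both pretreated groups, while all JQ1 libraries lay above all IL-10 libraries. On TPM this order of JQ1 and IL-10 libraries was reversed, with at most 33.0 in the former and at least 35.6 in the latter. JQ1 alone against unstimulated cells gave a log2 fold change of 0.05, but was called lower on TPM (-0.16). Stimulated cells had 5634, 5479 and 4694 normalised counts when not pretreated, 3712, 3741 and 4013 when JQ1 had been given, and 4755, 4097 and 3952 when IL-10 had been given. LPS raised it 4.34-fold (log2 fold change 2.12, SE 0.083, DESeq2 adjusted p = 2.90e-143), and total-count scaling still gave 1.19. It was 1.38-fold lower with LPS + JQ1 than with LPS (-0.46, SE 0.080, DESeq2 adjusted p = 3.03e-08), a call that total-count scaling did not keep (-0.09). The fall with LPS + IL-10 (-0.30, SE 0.080, DESeq2 adjusted p = 0.00165) came with overlapping libraries and was lost when the fit held only the groups compared (-0.29, DESeq2 adjusted p = 0.161, the highest of the alternatives, whose lowest was 1.37e-05).

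Stat3 (mm9 chr11:100746412-100800854, minus strand), the transcription factor that carries the IL-10 signal, had a like level with LPS and with LPS + IL-10. Normalised counts of 2102, 1647 and 1494 in the unstimulated libraries stood beside 2073, 2137 and 1992 in the JQ1 libraries and 2972, 2994 and 2839.6 in the IL-10 libraries. LPS took them to 9899.8, 9253 and 9141, LPS after JQ1 to 4642, 4741 and 4803, and LPS after IL-10 to 10008, 9279 and 9027. IL-10 libraries lay above all unstimulated and JQ1 libraries, and LPS + JQ1 libraries lay between these and the other LPS groups, which overlapped.

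IL-10 alone raised Stat3 1.68-fold (log2 fold change 0.75, SE 0.094, DESeq2 adjusted p = 1.78e-12), or by 0.91 on the log2 scale without unstimulated replicate 1. LPS raised it 5.39-fold (2.43, SE 0.094, DESeq2 adjusted p = 1.22e-145), and total-count scaling still gave 1.50. On top of LPS, IL-10 gave a log2 fold change of 0.00 (95% interval -0.18 to 0.18), and the effect of IL-10 with LPS was 0.75 lower than without it (interaction -0.75, SE 0.132, DESeq2 adjusted p = 1.37e-06). LPS + JQ1 cells had 1.99-fold less Stat3 than LPS cells (-0.996, SE 0.093, DESeq2 adjusted p = 7.62e-26). JQ1 alone gave 0.24 (SE 0.095, DESeq2 adjusted p = 0.0274) with overlapping groups, and this call was lost in 7 of 16 alternatives, among them each fit that left out unstimulated replicate 2 or 3 or JQ1 replicate 1 or 2 (0.20, 0.13, 0.24 and 0.22 in that order). Without unstimulated replicate 1, in contrast, the value was 0.40 (DESeq2 adjusted p = 5.94e-08, the lowest of the alternatives, whose highest was 0.673). The JQ1 effect differed with and without LPS by -1.24 (SE 0.133, DESeq2 adjusted p = 4.69e-19), and by -0.68 after total-count scaling.

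Promoter sequences from the RefSeq table (GRCm38.p6, 250 bases before each annotated start) were found for 7 of the 10 genes, while Il10, Il10ra and Il10rb had no entry. Both Sbno2 windows with a match are shown, and beside them those of Stat3 and Il4ra as examples of other genes that IL-10 alone raised. The windows of Etv3 and Nfil3, which IL-10 alone raised as well, are not shown. All windows were searched on both strands for TTCNNNGAA, the palindrome bound by STAT proteins, which 7.02% of the 32851 windows of the same length hold. Of the 3 starts of Sbno2, those at both upstream positions had a match, whose first base lay 26 and 24 bases before the start, whereas the windows of Jak1, Tyk2, Stat3, Etv3, Nfil3 and Il4ra had none. Matches are in capitals in the lines that follow, written in the direction of transcription, for Sbno2 at chr10:80102703-80102952 and chr10:80101188-80101437 (minus strand), Stat3 at chr11:100939541-100939790 (minus strand) and Il4ra at chr7:125552021-125552270 (plus strand).
Sbno2, outermost start: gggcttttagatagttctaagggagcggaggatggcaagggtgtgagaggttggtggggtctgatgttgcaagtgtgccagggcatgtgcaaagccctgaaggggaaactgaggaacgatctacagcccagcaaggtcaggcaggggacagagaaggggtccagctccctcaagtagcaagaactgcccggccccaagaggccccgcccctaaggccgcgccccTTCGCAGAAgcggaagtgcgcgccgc
Sbno2, middle start: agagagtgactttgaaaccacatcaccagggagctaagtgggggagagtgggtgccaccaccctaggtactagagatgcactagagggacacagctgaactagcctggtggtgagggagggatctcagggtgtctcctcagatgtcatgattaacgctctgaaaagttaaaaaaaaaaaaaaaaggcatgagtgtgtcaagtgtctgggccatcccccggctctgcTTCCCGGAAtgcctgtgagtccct
Stat3: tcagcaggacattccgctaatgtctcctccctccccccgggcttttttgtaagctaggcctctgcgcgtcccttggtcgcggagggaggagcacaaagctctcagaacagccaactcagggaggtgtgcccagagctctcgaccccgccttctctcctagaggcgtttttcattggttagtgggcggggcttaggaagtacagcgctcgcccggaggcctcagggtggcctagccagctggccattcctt
Il4ra: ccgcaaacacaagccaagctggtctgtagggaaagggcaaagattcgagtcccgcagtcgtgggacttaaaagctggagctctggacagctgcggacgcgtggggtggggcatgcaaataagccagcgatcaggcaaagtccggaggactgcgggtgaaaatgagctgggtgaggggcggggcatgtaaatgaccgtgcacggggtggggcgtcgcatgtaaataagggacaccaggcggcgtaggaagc
The window of the innermost Sbno2 start held a match to GAAANNGAA, a core of the element bound by interferon regulatory factors, which 7.13% of windows hold. No window of the 7 genes held TGANTCA, bound by AP-1 (6.75% of windows), or GGGANNTTC, a core of the NF-kB site (3.23%). These motifs overlapped nowhere in the windows searched. A match is a run of letters and not a measured binding site, and more distant elements were not searched.

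Sbno2 (mm9 chr10:79520161-79565443, minus strand), a helicase-family corepressor, moved in opposite directions with IL-10 and with JQ1. From 2610.5, 2190.2 and 1909 normalised counts in unstimulated cells it stood at 1135, 1129.7 and 1069.7 after JQ1 but at 3935, 3903 and 3598 after IL-10. In stimulated cells it started from 4167, 4338 and 3526 normalised counts without pretreatment, against 1119, 1132 and 1184 after JQ1 and 8152, 9928 and 7569.9 after IL-10. On this scale the IL-10 and LPS libraries overlapped, as did both JQ1 groups, and LPS + IL-10 libraries lay far above all others. On TPM neither pair overlapped. There IL-10 libraries stood at 119 to 126, LPS libraries at 68.6 to 77.0 and LPS + IL-10 libraries at 147 to 194.

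IL-10 raised Sbno2 1.70-fold without LPS (log2 fold change 0.77, SE 0.115, DESeq2 adjusted p = 1.17e-08, or 0.90 without unstimulated replicate 1) and 2.13-fold with LPS (1.09, SE 0.115, DESeq2 adjusted p = 2.82e-19). JQ1 lowered it 2.01-fold without LPS (-1.01, SE 0.117, DESeq2 adjusted p = 1.55e-16) and 3.50-fold with LPS (-1.81, SE 0.117, DESeq2 adjusted p = 4.26e-52). LPS gave 0.84 (SE 0.116, DESeq2 adjusted p = 1.20e-12) that turned to -0.08 after total-count scaling and was 0.07 on TPM, neither called. In JQ1-pretreated cells LPS gave 0.04 (95% interval -0.19 to 0.28), or -0.33 after total-count scaling, which called it lower. In IL-10-pretreated cells LPS gave 1.16, or 0.34 after total-count scaling, each called.

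Etv3 (mm9 chr3:87329329-87344078, plus strand), an ETS-family repressor, followed a like order with smaller steps. Cells that saw no LPS had 2364, 2128 and 2104 normalised counts if unstimulated, 1771, 1616 and 1706 if given JQ1, and 3352, 2842 and 3024 if given IL-10. Cells that saw LPS had 3561, 3687 and 3419 if not pretreated, 1998, 2089 and 2046 if given JQ1, and 6203, 7298 and 7110.1 if given IL-10. No neighbouring pair of groups overlapped on this scale. On TPM unstimulated (55.5 to 64.7) and LPS libraries (52.4 to 58.8) overlapped, as did JQ1 and LPS + JQ1 libraries. IL-10 raised it 1.40-fold without LPS (0.48, SE 0.079, DESeq2 adjusted p = 2.41e-07) and 1.93-fold with LPS (0.95, SE 0.078, DESeq2 adjusted p = 1.15e-31). The excess with LPS was 0.47 (SE 0.111, DESeq2 adjusted p = 0.000814) and missed the threshold on TPM (0.52). JQ1 lowered Etv3 1.30-fold without LPS (-0.37, SE 0.080, DESeq2 adjusted p = 1.50e-05) and 1.74-fold with LPS (-0.80, SE 0.080, DESeq2 adjusted p = 9.44e-23). LPS gave 0.69 (SE 0.079, DESeq2 adjusted p = 8.82e-18), against -0.23 after total-count scaling and -0.08 on TPM.

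Nfil3 (mm9 chr13:53062578-53076442, minus strand), a basic leucine zipper repressor that IL-10 is known to induce in macrophages, was higher with each single treatment than in unstimulated cells. The unstimulated libraries reached only 209, 169 and 123 normalised counts, whereas JQ1 libraries reached 490.4, 462 and 419, IL-10 libraries 353, 383 and 327, and LPS libraries 380.3, 356 and 362. Pretreatment and LPS together gave 532, 520.2 and 617 for JQ1, and 553, 681 and 565 for IL-10. No library of another group lay as low as any unstimulated one. LPS + JQ1 and LPS + IL-10 libraries overlapped, as did IL-10 and LPS libraries.

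Without LPS, JQ1 raised Nfil3 2.75-fold (log2 fold change 1.46, SE 0.150, DESeq2 adjusted p = 7.27e-21) and IL-10 raised it 2.13-fold (1.09, SE 0.150, DESeq2 adjusted p = 1.90e-10). Without unstimulated replicate 1 these values were 1.70 and 1.33. With LPS, JQ1 raised it 1.52-fold (0.60, SE 0.144, DESeq2 adjusted p = 7.93e-05) and IL-10 1.64-fold (0.71, SE 0.145, DESeq2 adjusted p = 1.64e-05). LPS alone gave 1.14 (SE 0.153, DESeq2 adjusted p = 4.13e-13), which was 0.21 and not called after total-count scaling, and 0.36 on TPM. JQ1 thus raised Nfil3 while it lowered Sbno2 and Etv3, in both the unstimulated and the LPS-stimulated state, and these directions held after total-count scaling and on TPM.

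Il4ra (mm9 chr7:132695785-132722986, plus strand), the chain that binds IL-4 and takes part in alternative activation of macrophages, had the largest fold change with IL-10 of the 10 genes during LPS stimulation, and without LPS stood level with Nfil3 (log2 fold changes 1.10 and 1.09). Libraries of unstimulated cells counted 1679, 1377 and 1247 after normalisation, close to the 1389.8, 1403 and 1282 of JQ1 cells, while those of IL-10 cells counted 3177, 3127 and 2904. The counts of 2507, 2518 and 2270.2 in LPS cells were likewise close to the 2444, 2374 and 2347 of LPS + JQ1 cells, while LPS + IL-10 cells counted 6834, 9288 and 6783. IL-10 libraries lay above all libraries without IL-10, and LPS and LPS + JQ1 libraries overlapped. IL-10 raised Il4ra 2.14-fold without LPS (1.10, SE 0.119, DESeq2 adjusted p = 4.29e-17, or 1.23 without unstimulated replicate 1) and 3.14-fold with it (1.65, SE 0.118, DESeq2 adjusted p = 1.18e-41).

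The larger effect of IL-10 on Il4ra during LPS stimulation (0.55, SE 0.167, DESeq2 adjusted p = 0.0165) was lost in 6 of 22 alternatives, 4 of which left out a single library (unstimulated replicate 1, IL-10 replicate 3, LPS replicate 3 or LPS + IL-10 replicate 2, with 0.42, 0.52, 0.51 and 0.39). JQ1 gave -0.08 without LPS (95% interval -0.32 to 0.16) and -0.03 with LPS (95% interval -0.26 to 0.21), though the latter became 0.35 after total-count scaling and 0.28 on TPM, each called. LPS gave 0.76 (SE 0.120, DESeq2 adjusted p = 6.11e-10) but -0.17 after total-count scaling and -0.007 on TPM, neither called.

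Counted over the pathway, IL-10 alone raised 5 of the 10 genes and lowered none, whereas 1.8% of all 12727 genes tested were called higher and 1.01% lower. The 5 were Stat3, Sbno2, Etv3, Nfil3 and Il4ra, that is, the transcription factor and every effector. The median log2 fold change of the 10 genes was 0.49, against -0.01 over all genes tested. With LPS, IL-10 raised 6 (Il10, Jak1, Sbno2, Etv3, Nfil3 and Il4ra) and lowered 2 (Il10ra and Tyk2), where 8.38% of all genes were called higher and 8.81% lower. The ligand-binding chain therefore fell while the effectors rose. Directions of these 8 calls were kept after total-count scaling and on TPM.

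**Figure D2:**
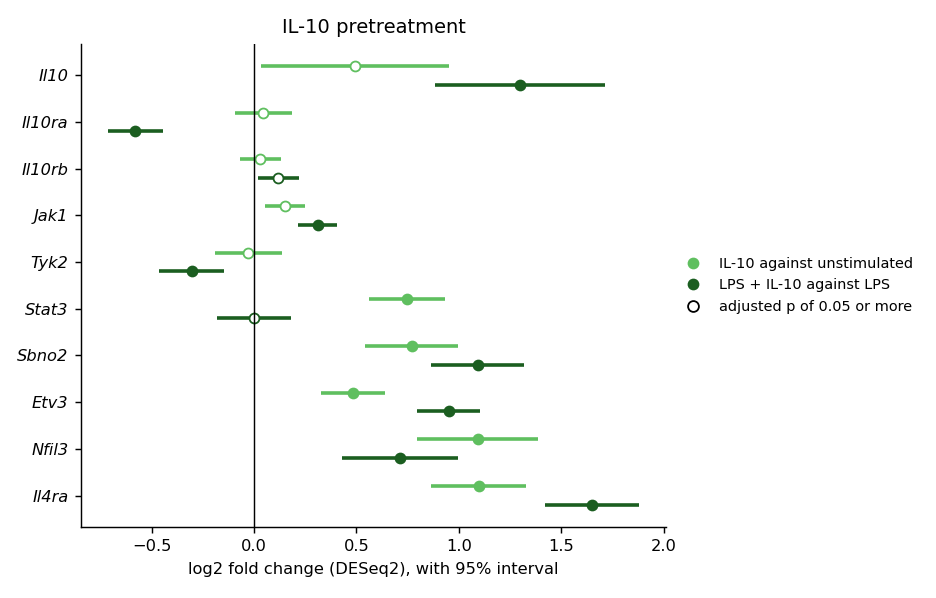
Log2 fold changes (x axis) of the 10 genes (y axis) with IL-10 against unstimulated cells and with LPS + IL-10 against LPS, as points with 95% intervals; open points did not pass the test. Sbno2, Etv3, Nfil3 and Il4ra were to the right of 0 in both comparisons, Stat3 only without LPS (0.75 against 0.00), and Il10ra was to the left of 0 with LPS (-0.58).

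JQ1 alone raised 3 of the 10 genes (Jak1, Stat3 and Nfil3) and lowered 3 (Il10rb, Sbno2 and Etv3), against 21.9% of all genes called higher and 23.7% lower, and of the genes raised only Nfil3 was still called after total-count scaling and on TPM. With LPS, JQ1 raised 2 (Il10 and Nfil3) and lowered 6 (Il10ra, Il10rb, Tyk2, Stat3, Sbno2 and Etv3), while 24.4% of all genes were called higher and 32.9% lower. The median of the 10 genes was -0.63 and that of all genes tested -0.11. On TPM, where Jak1 and Il4ra were also called, 4 were higher and 6 lower. Among calls over the genes on which the scalings were compared, 63.0% were higher on TPM and 43.6% after median-of-ratios scaling.

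**Figure D3:**
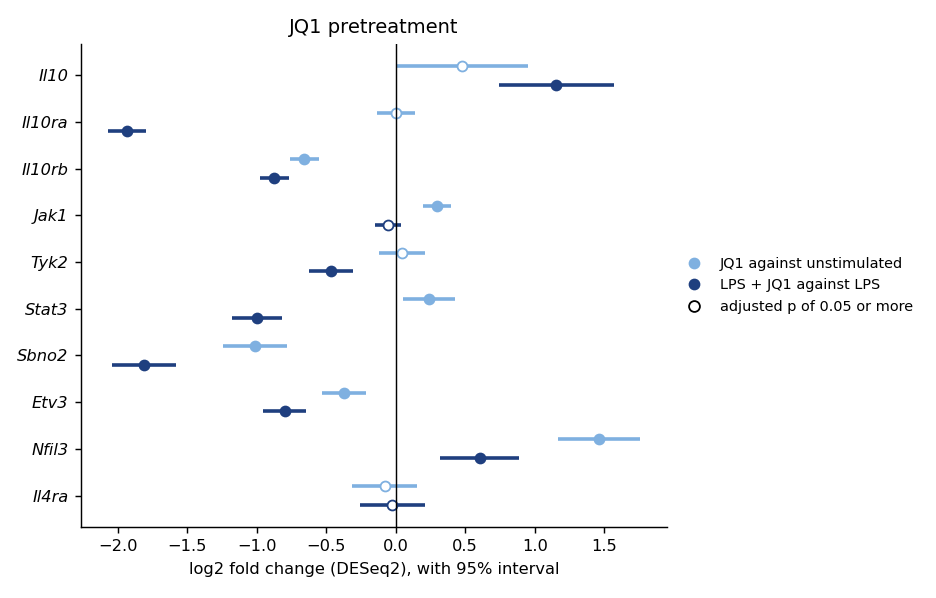
Log2 fold changes (x axis) of the 10 genes (y axis) with JQ1 against unstimulated cells and with LPS + JQ1 against LPS, as points with 95% intervals; open points did not pass the test. Il10ra was at 0.003 without LPS and at -1.93 with LPS, and Nfil3 was to the right of 0 in both comparisons. The values near 0 for Jak1 and Il4ra with LPS became 0.32 and 0.35 after total-count scaling.

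LPS alone raised all 10 genes (31.6% of all genes were called higher and 32.9% lower), but after total-count scaling 4 were called higher and 2 lower, and on TPM 5 higher and 1 lower. Among calls over the genes on which the scalings were compared, 49.5% were higher after median-of-ratios scaling, 20.6% after total-count scaling and 23.3% on TPM. Il10ra, Jak1, Tyk2 and Stat3 were called higher under each of these scalings, and all 10 lay above the median of those genes under each. In JQ1-pretreated cells LPS raised 6 and lowered none (27.6% and 31% of all genes), with Il10ra, Il10rb, Sbno2 and Nfil3 not called. After total-count scaling Il10ra, Il10rb and Sbno2 were called lower in that comparison (-0.22, -0.32 and -0.33) and Etv3 turned to -0.11. In IL-10-pretreated cells LPS raised all 10 (33.2% and 33.8% of all genes), of which Il10rb turned to -0.47 and Nfil3 to -0.07 after total-count scaling.

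**Figure D4:**
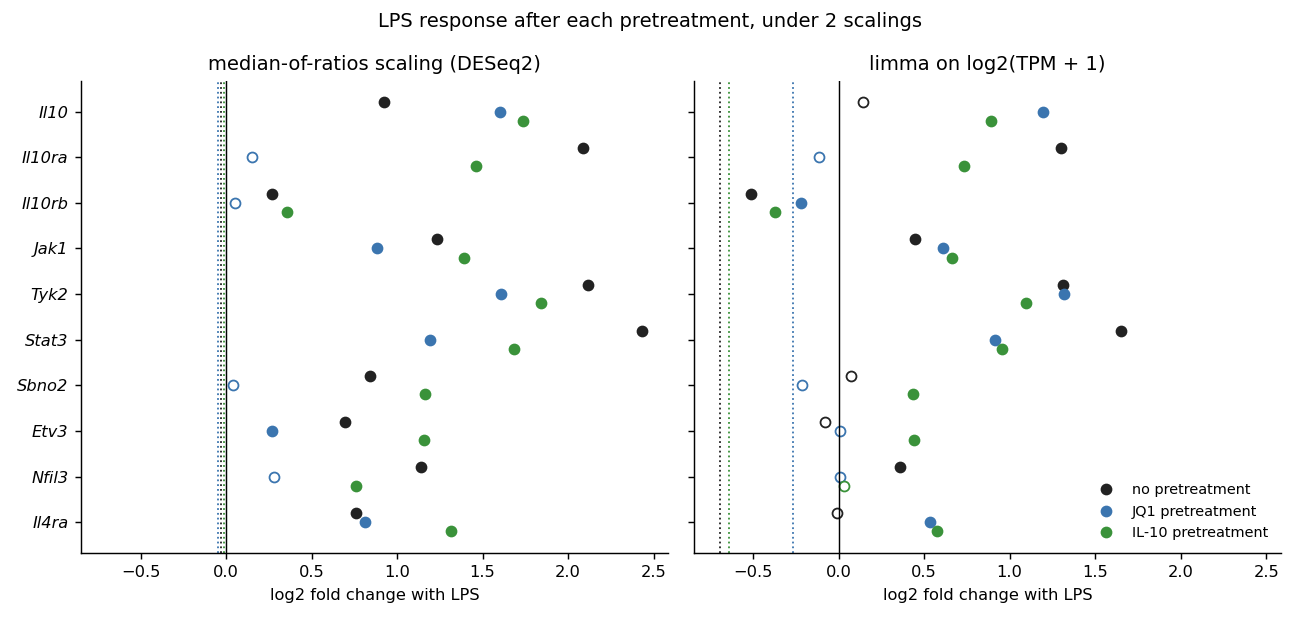
Log2 fold change with LPS (x axis) of the 10 genes (y axis) in cells without pretreatment, with JQ1 and with IL-10, after median-of-ratios scaling (left) and on log2(TPM + 1) (right). Filled points passed the test, open points did not, and dotted lines mark the median of the genes on which the scalings were compared. Il10ra was at 2.09, 0.15 and 1.46 on the left and at 1.30, -0.12 and 0.73 on the right, and Il10rb was above 0 on the left and below 0 on the right.

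Set directly against LPS + IL-10, LPS + JQ1 cells had lower levels of 7 of the 10 genes and higher levels of none, where 23.8% of all genes were called higher and 31.6% lower. Sbno2 differed most, 7.47-fold (log2 difference -2.90, SE 0.117, DESeq2 adjusted p = 1.27e-133), followed by Etv3 at 3.36-fold and Il4ra at 3.20-fold. Jak1 was 1.29-fold lower, a call not kept after total-count scaling or on TPM. Il10ra was 2.55-fold lower, so the chain was lower with JQ1 than with IL-10 although each pretreatment lowered it. Nfil3 (-0.11, 95% interval -0.38 to 0.17), Tyk2 (-0.16, 95% interval -0.32 to -0.001) and Il10 did not pass. LPS + JQ1 and LPS + IL-10 were each compared with the same LPS libraries, and LPS, JQ1 and IL-10 with the same unstimulated libraries, so those results are not independent of each other.

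The effect of JQ1 was lower with LPS than without it for 8 of the 10 genes and higher for none, when 17.7% of all genes were called higher and 23.8% lower. This count depended on the scaling, since after total-count scaling 4 genes were called higher and 2 lower, the latter being Il10ra and Stat3. Il10rb (0.34), Jak1 (0.20), Tyk2 (0.05) and Etv3 (0.13) changed sign in that setting. There the median of the genes on which the scalings were compared was 0.50, and 85.7% of the calls over them were higher. Relative to that median all 8 stayed lower. The IL-10 effect was higher with LPS for Etv3 and Il4ra and lower for Il10ra and Stat3 (4% and 3.44% of all genes), and these directions held under both scalings, although Etv3 and Il4ra were not called on TPM.

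Other genes known to be induced by IL-10 in macrophages were described from a list of 20. IL-10 alone raised 5 and lowered none, with a list median of 0.22 (1.8% and 1.01% of all genes). Socs3, the feedback inhibitor of cytokine receptors, had 174, 23.7 and 36.2 normalised counts in unstimulated cells and 931, 703 and 691 with IL-10. The fitted rise was 9.85-fold, and the ratio of means was 25.9 without unstimulated replicate 1 and 9.96 with it. Bcl3, a nuclear IkB protein (2.02-fold), and the transcription factor Cebpd (1.59-fold) rose as well, as did Pim1 (1.38-fold). With LPS, 12 of the 19 tested were higher with IL-10 and 1, the kinase gene Pim1, was 1.35-fold lower, against 8.38% and 8.81% of all genes, and the list median was 0.66.

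The largest rises with IL-10 during LPS stimulation were those of the cytokine receptor gene Il21r (5.34-fold, DESeq2 adjusted p = 4.19e-15), the phosphatase gene Dusp1 (4.29-fold, DESeq2 adjusted p = 1.49e-48), Tnip3, an inhibitor of NF-kB signalling (2.74-fold), and the IL-1 receptor antagonist Il1rn (2.40-fold). LPS + JQ1 cells had 12 of the 20 lower and 2 higher than LPS cells, against 32.9% lower and 24.4% higher among all genes, with a list median of -0.60. Il1rn fell from a mean of 8693 to 142 normalised counts, Il21r from 91.5 to 3.84, and the scavenger receptor gene Msr1 from 10266 to 2164.

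**Figure D5:**
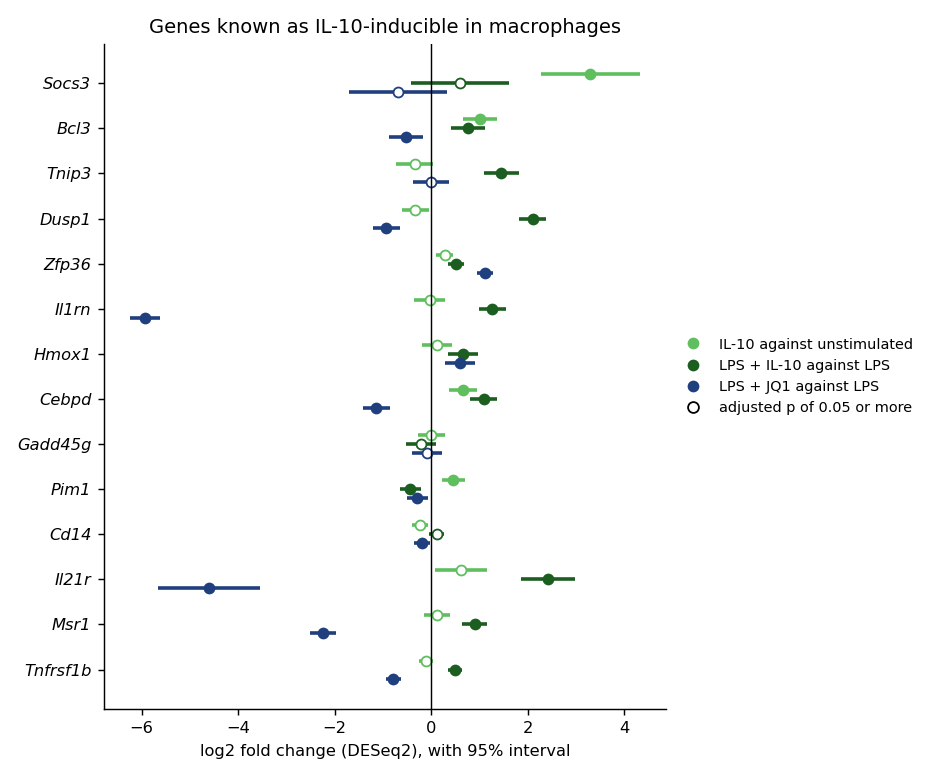
Log2 fold changes (x axis) with 95% intervals of 14 genes of the IL-10-inducible list with a mean of at least 100 normalised counts (y axis), for IL-10 against unstimulated cells, LPS + IL-10 against LPS and LPS + JQ1 against LPS; open points did not pass the test. Il21r, Dusp1, Il1rn, Cebpd and Msr1 were to the right of 0 with LPS + IL-10 and to the left with LPS + JQ1.

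Of 24 other receptors, kinases, STATs and inhibitors of the JAK-STAT pathway, IL-10 alone raised 1 of the 20 tested (1.8% of all genes), the kinase gene Jak3 (1.92-fold, DESeq2 adjusted p = 2.40e-08), and lowered none. With LPS, IL-10 raised 6 and lowered 3 of 20 (8.38% and 8.81% of all genes), with a list median of 0.03. Jak3 (1.72-fold), the receptor chains Il6ra (2.12-fold) and Ifngr2 (1.53-fold) were higher, and Cish, an inhibitor induced by STAT5, was 5.35-fold lower. The Cish counts were 539.96, 134 and 158 with LPS + IL-10 and 1445, 1593 and 1405 with LPS, and without LPS + IL-10 replicate 1 the ratio of means was 10.2 in place of 5.34. JQ1 with LPS raised 5 and lowered 12 of 21 (24.4% and 32.9% of all genes), with a list median of -0.54. After total-count scaling it raised 7 and lowered 10, where 65.9% of calls over the genes on which the scalings were compared were higher. In the median-of-ratios fit Il6st, the signalling chain of the IL-6 receptor, was 3.30-fold higher. Cish (3.01-fold), Jak3 (2.69-fold) and the phosphatase gene Ptpn6 (2.59-fold) were lower.

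The rise of Il4ra with IL-10 was set beside 12 partners and targets of the IL-4 receptor. IL-10 alone raised 1 of the 9 tested and lowered none, against 1.8% higher and 1.01% lower among all genes. The gene raised was the mannose receptor gene Mrc1 (1.68-fold, DESeq2 adjusted p = 0.00220). The Mrc1 call was not kept on TPM. With LPS, IL-10 raised 1 and lowered 3 of the 7 tested (0 and 2 on TPM), against 8.38% and 8.81% of all genes. Mrc1 was 1.44-fold higher, with overlapping groups, and Il2rg, which encodes the common gamma chain that pairs with IL-4Ra, was 1.40-fold lower (DESeq2 adjusted p = 0.0366). With LPS + JQ1, where Il4ra was not called, 1 of 10 was higher and 6 were lower than with LPS, against 24.4% and 32.9% of all genes. Both receptor partners were among the latter, with Il13ra1 4.18-fold and Il2rg 4.03-fold lower, and Mrc1 was 1.60-fold lower, whereas the adaptor gene Irs2 was 1.95-fold higher.

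For each of the 10 genes, the genes of most like pattern were sought among 8369 candidates with at least 100 normalised counts, by the root mean square difference of the 5 log2 fold changes of group means against unstimulated cells. Ubxn2a was nearest to Il10ra (0.14, against a median of 1.22 over all candidates), and Tmem209 (0.19) and Mex3c (0.21) followed. Rexo2 (0.07), Igf2r (0.07) and Mrpl37 (0.09) were nearest to Il10rb, Tm9sf4 (0.08), Rhog (0.09) and Tmbim4 (0.10) to Jak1, and Abi1 (0.08), Psma3 (0.08) and Polr2g (0.11) to Tyk2. Stat3 had Slc31a1 (0.21), Cept1 (0.24) and Notch1 (0.30), and Etv3 had Zfp821, Pycard and Tram2 (0.23 each). Sbno2 was followed by Tmem176a (0.24), Ms4a4a (0.36) and Sc5d (0.39), and Il4ra by Ifitm2 (0.36), Mcoln2 (0.42) and Wfdc17 (0.42). Nfil3 was followed by Spp1 (0.37), Pfkl (0.46) and Acat2 (0.53), and Il10 by Susd6 (0.38), Slc25a37 (0.38) and Herpud1 (0.39).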

How the data were processed

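RNA was sequenced from 18 libraries of Il10-/- BMDMs in 6 groups of 3. According to the methods and the labels, the authors made ribosomal RNA-depleted, stranded, paired-end libraries, took reads with TagDust, aligned them with STAR (version not given in the sources used here) to mm9 and quantified genes with RSEM 1.2.31 under default settings, which do not use the strand. The authors deposited expected counts, in which RSEM divides reads that match several genes, so near-identical genes share reads and overlapping or antisense genes cannot be separated. The deposited TPM values are the authors' abundances scaled by transcript length. The effective lengths deposited by the authors served as an offset in an alternative. Depth was 6781952 to 28289498 counts, and floors from counts cover counting error only. The 95% intervals of log2 fold changes come from the DESeq2 standard errors, which include the spread between libraries.

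Expected counts were rounded and fitted with DESeq2 1.42.0 (Wald test over all 18 libraries, group as the only term, Benjamini-Hochberg adjusted p, threshold 0.05, two-sided). The fold changes and adjusted p-values in the text come from this fit unless stated. Alternatives were edgeR 4.0.16 (quasi-likelihood), TMM factors, total-count scaling, limma 3.58.1 on log2(TPM + 1) for genes with a mean of at least 0.5 TPM, the length offset, no independent filtering, a minimum of 10 counts in every library, the replicate number as a block, the sequencing lane, the compared groups alone, and each library left out (R 4.3.3). The script was tested on simulated data.

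The methods name 3 Il10-/- mice and the labels call the samples biologically matched, but neither ties a replicate number to a mouse. The tests of the main fit were unpaired, and the replicate number was used only as a block in an alternative. The pairing check correlated deviations from the group means over 11390 genes. Same-numbered libraries had mean correlations of 0.126 for LPS, 0.319 for LPS + IL-10 against LPS and -0.04 for LPS + JQ1 against LPS, so same-numbered libraries did not deviate together in every comparison. The libraries of 1 group differed beyond sampling noise in all 18 pairs (chi-square per degree of freedom 3.97 to 28.3), so none was counted as a duplicate.

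The 10 genes and the lists were chosen with earlier results of these data known, and counts over a list are therefore descriptions. All 10 genes are described, each with the 3 genes of most like pattern. Of the lists, the genes named were the 4 most changed called genes, where there were as many, with a mean of at least 100 normalised counts, and Pim1 was named after its values were seen. Leaving out single libraries for the named list genes (ratios of mean normalised counts) was added after the data were seen. The values of 1 gene of the IL-10-inducible list are not reported here, although it is in the counts and medians. Promoters came from RefSeq (GRCm38.p6), and their coordinates were not mixed with the mm9 positions of genes.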

Additional observations from a re-analysis of the deposited data

Results flagged for a closer look

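The effects of JQ1 in LPS-stimulated and in unstimulated cells differed by the interaction test of DESeq2 for 8 of the 10 genes. Of all genes tested, 17.7% were called higher and 23.8% lower. The log2 differences were -1.94 for Il10ra, -1.24 for Stat3, -0.86 for Nfil3, -0.80 for Sbno2, -0.51 for Tyk2, -0.43 for Etv3, -0.35 for Jak1 and -0.22 for Il10rb, each the effect with LPS minus that without it. Il10ra and Stat3 were called lower under every alternative run, whereas Il10rb, Jak1, Tyk2 and Etv3 changed sign after total-count scaling and on TPM. The calls of Nfil3 (-0.30 and -0.35) and Sbno2 (-0.25 and -0.28) were lost in both, and that of Il10rb also with edgeR and with TMM factors (-0.11 and -0.09).

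The effects of IL-10 differed in the same way for 4 genes, where 4% of all genes were called higher and 3.44% lower. The log2 differences were -0.75 for Stat3 and -0.63 for Il10ra, which were smaller or more negative with LPS, and 0.55 for Il4ra and 0.47 for Etv3, which were larger with LPS. Both negative differences passed under every alternative run.

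Unstimulated replicate 1, which had the highest normalised count of its group for 7 of the 10 genes, enters all 12 of these differences. Its Socs3 count was 174, against 23.7 and 36.2 in the other libraries of its group. Without it the IL-10 difference of Il4ra was 0.42 and the JQ1 difference of Il10rb was -0.17, neither called, and the cause was not tested.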

How the results depend on the processing

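Of 1720 values of single genes under the alternatives, 1626 kept their side of the threshold and the direction of any call, 32 lost a call, 31 gained one and 31 changed sign where either value was called. These 31 all arose after total-count scaling or on TPM. With LPS 10 genes were called here and 6 in each of these. After total-count scaling the LPS values were -0.0034 (Il10), -0.66 (Il10rb), -0.084 (Sbno2), -0.23 (Etv3) and -0.17 (Il4ra), and on TPM -0.51 (Il10rb), -0.082 (Etv3) and -0.0069 (Il4ra). For JQ1 alone Il10ra was -0.17 after total-count scaling and -0.20 on TPM, where Tyk2 was -0.16. For LPS + JQ1 against LPS, Jak1 was 0.32 and Il4ra 0.35 after total-count scaling, and 0.25 and 0.28 on TPM. For LPS in JQ1-pretreated cells total-count scaling gave -0.22 (Il10ra), -0.32 (Il10rb), -0.33 (Sbno2) and -0.11 (Etv3), and TPM -0.22 (Il10rb). For LPS in IL-10-pretreated cells it gave -0.47 (Il10rb) and -0.070 (Nfil3), and TPM -0.37 (Il10rb). The difference of the JQ1 effects was called for 8 genes here, all lower, and for 5 on TPM, of which 3 were higher (Il10, Il10rb and Il4ra) and 2 lower (Il10ra and Stat3). It became 0.34 (Il10rb), 0.20 (Jak1), 0.046 (Tyk2) and 0.13 (Etv3) after total-count scaling, and 0.29, 0.16, 0.0037 and 0.087 on TPM. That of the IL-10 effects was called for 4 genes here and 2 on TPM.

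With the replicate number as a replicate block, the only call to change was that of Jak1 with IL-10 alone (log2 fold change 0.15, DESeq2 adjusted p = 0.0425, over a range of 0.0425 to 0.406). That of Jak1 also changed with TMM factors (0.16, DESeq2 adjusted p = 0.0462). Other calls turned on the tool, the scaling or a single library. Without JQ1 replicate 3, Il10 passed with JQ1 alone (0.65). For LPS in JQ1-pretreated cells, Il10ra and Nfil3 passed with edgeR, TMM factors, the lane covariate and the compared groups alone (Nfil3 0.33, 0.33, 0.33 and 0.34), and Il10ra also with the length offset and without LPS + JQ1 replicate 1 (0.20). Tyk2 passed for LPS + JQ1 against LPS + IL-10 without LPS + IL-10 replicate 3 (-0.21). The JQ1 difference of Il10 passed with edgeR (0.79), TMM factors (0.81), total-count scaling (1.23), TPM (1.05) and the 10-count minimum (0.70), and without JQ1 replicate 1, LPS replicate 3 or LPS + JQ1 replicate 1 (0.93, 0.82 and 0.78). The IL-10 difference passed for Nfil3 without unstimulated replicate 1 (-0.62), for Tyk2 without LPS replicate 3 (-0.35) or LPS + IL-10 replicate 1 (-0.36), and for Jak1 without the latter (0.20). The cause of these changes was not tested. At 3 libraries per group a missed threshold does not show that a gene did not change, and Il10, with 16 to 196 counts, was measured least precisely.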
